A study of Mus musculus with 18 samples.

Results

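Interleukin and tumor necrosis factor (TNF) genes were followed across 3 mouse fat depots: adipocytes of inguinal white adipose tissue (iWAT), adipocytes of epididymal white adipose tissue (eWAT), and interscapular brown adipose tissue (BAT). The set held 90 genes of the 30975 with an Entrez gene ID in the files: every symbol that begins with Il and a digit, plus Tnf, its receptors Tnfrsf1a and Tnfrsf1b, and the TNF response genes Tnfaip2 and Tnfaip3. By role, they comprised 40 ligands, 41 receptor chains, 6 inhibitors (antagonists, decoy receptors and binding proteins), 1 enzyme and 2 response genes. In what follows, iWAT and eWAT stand for the adipocytes of these depots. The choice went by gene names, but it was made with earlier results of these data known. RNA-seq was run on 18 samples, 6 per depot, each from 1 mouse. By the numbers in the titles, iWAT and eWAT came from the same 6 mice, and 4 of the 6 BAT samples from mice among these. The main tests treated the samples as independent. All mice were wild-type C57BL/6 males that had received a high-fat diet for 12 weeks, and they were 16 weeks old. No lean or chow-fed group was analysed here, so the values describe mice on this diet only. White fat had been digested with collagenase and the floating adipocytes collected, whereas BAT was frozen and, per its source label and the extraction protocol, extracted as tissue, although its cell type label reads adipocytes. Depot and handling therefore cannot be told apart in any comparison with BAT, and a bulk sample cannot tell fewer cells of a type from less RNA per cell.

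Interleukins and TNF are secreted signals that immune cells and, for some members, adipocytes and stromal cells use to direct inflammation. IL-1 family receptors and TNF receptors signal through adaptor proteins to the transcription factor NF-κB, many other interleukin receptors signal through Janus kinases and STAT proteins, and soluble antagonists or decoy receptors limit the signal. In obese white fat, macrophages collect around adipocytes and are a well-known source of TNF, IL-1β, IL-6 and IL-10, while BAT is best known for burning fuel to make heat.

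The labels were checked against marker genes. The summed level of 4 adipocyte markers (Adipoq, Plin1, Lep, Cidec) was 2605 to 3840 RPKM (reads scaled to the length of the transcript and to the size of the library) in iWAT, 517 to 1812 in eWAT and 629 to 824 in BAT. The 3 brown markers including Ucp1, the heat-producing uncoupler, summed to 1970 to 2615 RPKM in BAT, 8.43 to 11.5 in iWAT and 0.606 to 2.57 in eWAT. Macrophage markers were not absent from the isolated adipocytes. The 7 genes Emr1, Cd68, Csf1r, Lyz2, Mrc1, Itgam and Cd14 summed to 460 to 909 RPKM in iWAT, 2605 to 4186 in eWAT and 25.4 to 50.6 in BAT, with no overlap between depots and none of the 7 at 0 reads in any depot. In eWAT, the samples of mice 1 and 3 had the highest macrophage sums and the lowest adipocyte sums. The 5 T cell markers summed to less than 1 RPKM in every sample (highest 0.640). A list of 13 immediate early and heat shock genes such as Fos, Egr1 and Hspa1a, added after values had been seen because tissue digestion can induce them, summed to 2945 to 5467 RPKM in iWAT, 2529 to 3848 in eWAT and 58.9 to 479 in BAT. Each library held 22089498 to 36388452 reads on the rows used.

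**Figure D1:**
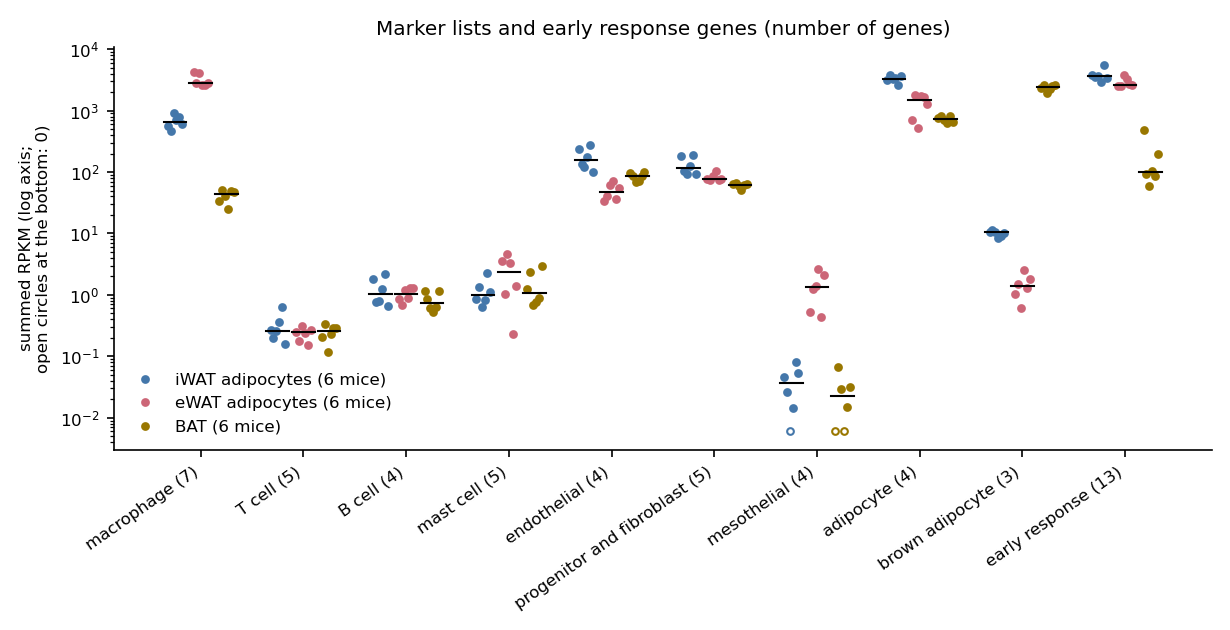
Summed RPKM (log axis) of marker lists in each of the 18 samples, with the number of genes in each list in parentheses, 1 point per mouse and a bar at the median of the 6 mice. The macrophage sums of the 3 depots do not overlap (460 to 909, 2605 to 4186 and 25.4 to 50.6 RPKM), and the early response sums of BAT lie below all 12 samples of adipocytes.

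Of the 90 genes, 35 reached a mean of at least 1 RPKM in at least 1 depot, a round cutoff for naming and not a limit of detection. The count was 30 in iWAT (33.3% of the members, against 39.6% of all genes), 34 in eWAT (37.8%, against 39.1%) and 12 in BAT (13.3%, against 34.8%). Closest to the cutoff lay Il1rap, highest in eWAT with a mean of 1.08 RPKM, and below it Il17rd, named after its values were seen, with a mean of 0.974 RPKM in iWAT. Of 40 ligands, 9 reached 1 RPKM in iWAT, 8 in eWAT and 1 in BAT, the growth factor Il34. Of 41 receptor chains, 16, 20 and 10 did so. The 12 genes at 1 RPKM in every depot were Il10rb, Il11ra1, Il15ra, Il17rc, Il1r1, Il2rg, Il34, Il4i1, Il4ra, Il6ra, Il6st and Tnfrsf1a. Another 17 reached it in both white depots and not in BAT, 5 only in eWAT and 1, Il17d, only in iWAT.

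A further 27 members had at most 3 reads in each of the 18 samples, and 10 of these had no read at all: Il1f10, Il1f5, Il1f8, Il1rapl2, Il24, Il25, Il28a, Il28b, Il31 and Il9. At these depths, such genes were not detectable, which does not show that they are absent. The T cell interleukins Il2, Il17a, Il17f, Il21 and Il22 were among the 27, as were the neuronal receptor Il1rapl1 and the epithelial ligands Il19 and Il20. Another 9 genes were at the same floor in BAT only: Il6, Il10, Il12b, Il13, Il17c, Il1r2, Il23a, Il31ra and Il9r.

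Promoter sequence is shown for the inflammatory ligands Tnf, Il1b and Il6, and for Tnfaip3, the ubiquitin-editing enzyme that restrains NF-κB and is itself an NF-κB target, since these genes carried large differences below. The 250 bases before the annotated start come from RefSeq (GRCm38.p6). Each was found once on its chromosome in the NCBIM37 (mm9) genome that the files use, at chr17:35338953-35339202 (minus strand) for Tnf, chr2:129196876-129197125 (minus strand) for Il1b, chr5:30339404-30339653 (plus strand) for Il6 and chr10:18735217-18735466 (minus strand) for Tnfaip3. Capitals mark matches to the NF-κB motif on either strand.
Tnf: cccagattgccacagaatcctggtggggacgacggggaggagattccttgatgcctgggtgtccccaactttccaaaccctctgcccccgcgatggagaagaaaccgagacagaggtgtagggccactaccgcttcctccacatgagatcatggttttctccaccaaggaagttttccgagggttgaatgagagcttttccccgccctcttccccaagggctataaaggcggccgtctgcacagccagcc
Il1b: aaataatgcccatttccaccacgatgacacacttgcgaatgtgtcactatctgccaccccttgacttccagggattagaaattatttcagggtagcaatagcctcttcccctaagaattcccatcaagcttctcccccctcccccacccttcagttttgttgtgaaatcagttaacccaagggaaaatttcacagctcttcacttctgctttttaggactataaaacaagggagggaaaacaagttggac
Il6: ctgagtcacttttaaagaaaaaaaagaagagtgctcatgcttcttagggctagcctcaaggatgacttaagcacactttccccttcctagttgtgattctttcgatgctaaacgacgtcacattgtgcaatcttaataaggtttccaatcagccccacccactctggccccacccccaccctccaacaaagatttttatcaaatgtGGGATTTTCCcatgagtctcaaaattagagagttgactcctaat
Tnfaip3: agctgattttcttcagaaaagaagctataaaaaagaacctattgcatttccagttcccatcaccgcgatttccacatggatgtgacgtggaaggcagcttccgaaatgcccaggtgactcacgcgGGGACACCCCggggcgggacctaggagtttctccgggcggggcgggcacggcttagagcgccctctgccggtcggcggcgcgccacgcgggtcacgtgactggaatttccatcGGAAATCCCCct

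The Il6 window held 1 NF-κB match that begins 44 bases before the start, 1 match to the AP-1 motif (TGANTCA) that begins 249 bases before it and 1 to the C/EBP motif (TTGCNNAA) that begins 128 bases before it. In Tnfaip3, NF-κB matches began 125 and 12 bases before the start, and an AP-1 match began 136 bases before it. The Tnf and Il1b windows held no match to any of these letters. None of the matches printed overlapped another. Among the 70 members with an entry, 8 held an NF-κB match (11.4%), compared with 8.23% of 27025 genes: Il16, Il19, Il1r1, Il22ra1, Il2ra, Il6, Tnfaip2 and Tnfaip3. An AP-1 match was held by 15 of the 70 (21.4%, against 7.82% of all) and a C/EBP match by 14 (against 10.8% of all). A match to these letters is a description of the sequence and not evidence of binding.

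The first comparison asked how the white depots differ from each other. Most members that differed were higher in eWAT, with Il1b, Tnfaip2, Il7r, Tnfrsf1b and Il10ra the 5 largest changes, whereas 4 of the 5 IL-17 receptor chains, Il15ra, Il34 and Il17d were higher in iWAT. Of 51 members with enough reads to test, 39 passed (edgeR quasi-likelihood test, Benjamini-Hochberg adjusted p of at most 0.05 over all genes), which is 76.5% against a background of 70.5% of all 16362 genes tested. By direction, 29 were higher in eWAT (56.9%, background 35.6%) and 10 in iWAT (19.6%, background 34.9%). The median log2 difference, iWAT minus eWAT, was -0.74 over the 51 members and 0.00 over all genes. The ranges of the 6 mice did not overlap for 29 of the 51 (56.9%, background 46.4%). All 7 macrophage markers were higher in eWAT too, with a median log2 difference of -2.22, and their part in these results was not tested.

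The other comparisons set each white depot against BAT, and share the BAT samples. Nearly all members that differed were higher in the white depots, among them Tnf, Il1b, Il6 and Il10, and the few that were higher in BAT were receptor chains. In iWAT against BAT, 48 members were tested and 37 passed (77.1%, background 75.9%): 34 were higher in iWAT (70.8%, background 38.6%) and 3 in BAT (6.25%, background 37.3%). In eWAT against BAT, 49 were tested and 46 passed (93.9%, background 83.3%), 41 higher in eWAT (83.7%, background 41.2%) and 5 in BAT (10.2%, background 42.1%). Genes entered these tests by their mean count over both depots. Members with almost no reads in BAT, such as Il10 and Il6, entered only through the white depot. The direction of such members was set by that filter, so they add no support to these splits. The same filter applied to all genes. The median log2 difference of the members was 1.1602 and 1.927, beside 0.02 and -0.03 over all genes. Ranges did not overlap for 39 of 48 (81.2%, background 66.5%) and 44 of 49 (89.8%, background 69.4%). All 7 macrophage markers and all 13 early response genes were also higher in both white depots than in BAT, and their part was not tested.

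Fold changes against BAT depend on scaling. The edgeR test used TMM scaling, which centers most genes. With total counts alone, the median of all genes moved from 0.02 to 0.81 (iWAT over BAT) and from -0.03 to 0.80 (eWAT over BAT) on the log2 scale. RPKM values carry no TMM scaling, so that their ratios to BAT run higher than the fold changes given here. The counts at 1 RPKM depend on it too. With TMM-scaled RPKM, they were 28 in iWAT, 33 in eWAT and 15 in BAT, in place of 30, 34 and 12. The shares of all genes were not computed with that scaling. No member that passed in a comparison turned direction without TMM scaling.

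**Figure D2:**
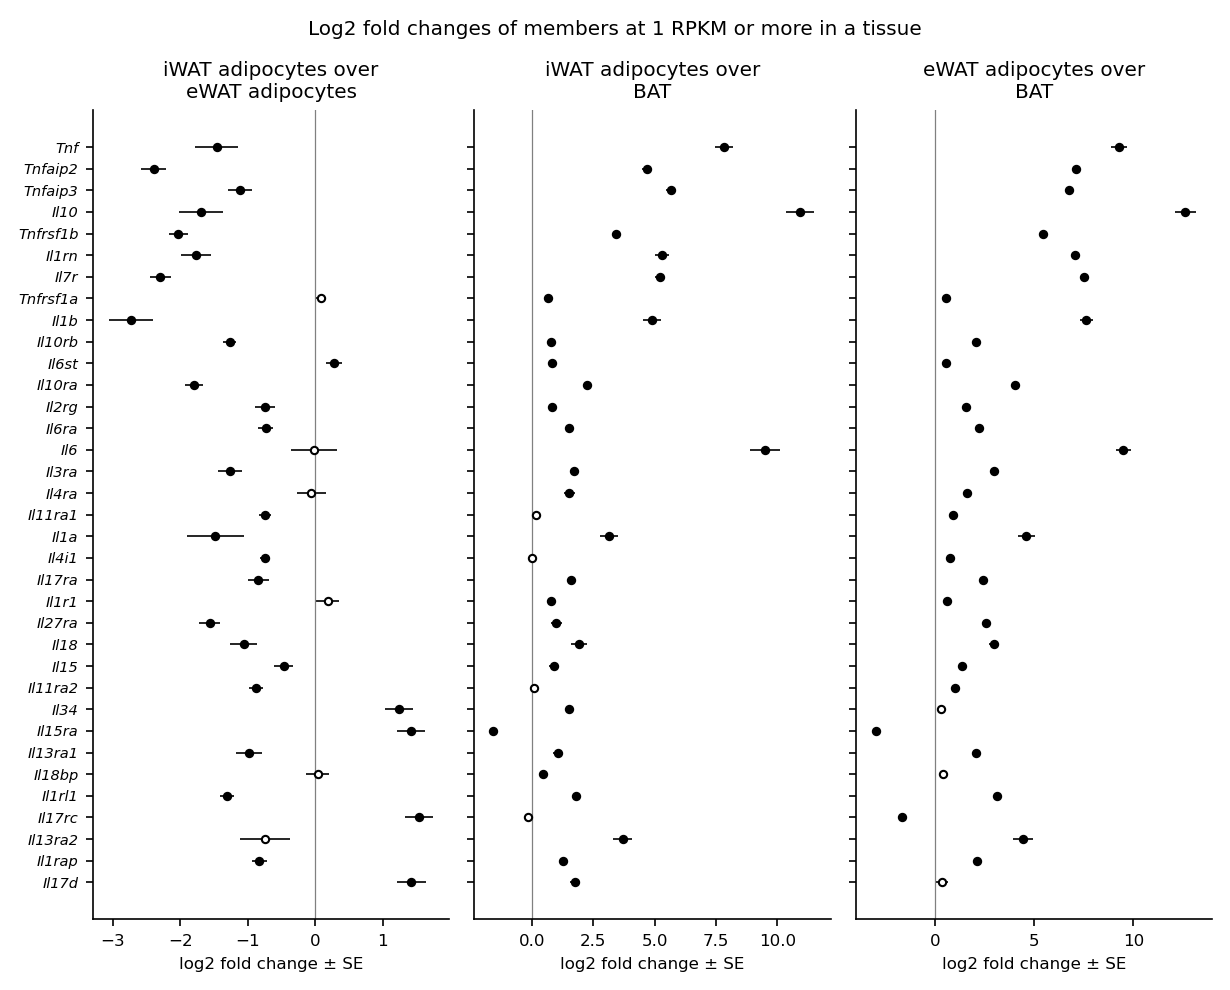
Log2 fold change (x axis, ± SE, edgeR) of the 35 members at 1 RPKM or more in a depot, ordered by level in eWAT, where filled points passed an adjusted p of 0.05 and open points did not. Most points lie left of 0 for iWAT over eWAT and right of 0 against BAT, while Il15ra and Il17rc are on the opposite side in the panels with eWAT; the Il10 and Il6 points against BAT are fitted against 0 or 1 read a sample and are not bounds.

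Among the ligands, Tnf, the founding member of the TNF family, had the highest level in both white depots. It measured 29.0 RPKM at the lowest, 39.2 at the median and 74.1 at the highest mouse in iWAT, compared with 70.7, 93.9 and 234 in eWAT and 0.0516, 0.102 and 0.237 in BAT. The white depots overlapped narrowly, in that 1 iWAT sample exceeded the lowest eWAT sample, and BAT lay far below both, at 2 to 15 reads a sample. Tnf was 2.75-fold higher in eWAT than in iWAT (log2 difference -1.46 ± 0.32 SE, edgeR adjusted p = 0.00123), 227-fold higher in iWAT than in BAT (7.83 ± 0.36, adjusted p = 3.29e-11) and 623-fold higher in eWAT than in BAT (9.28 ± 0.42, adjusted p = 2.24e-11).

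The TNF response genes followed the same order. Tnfaip2 measured 13.8, 16.7 and 29.7 RPKM (lowest, median and highest) in iWAT, 90.9, 101 and 114 in eWAT and 0.405, 0.481 and 0.593 in BAT. No depots overlapped, and eWAT exceeded iWAT 5.26-fold (adjusted p = 4.36e-07) and BAT 137-fold (adjusted p = 1.38e-14). Tnfaip3 measured 25.3, 31.9 and 50.9 RPKM in iWAT, 62.2, 72.4 and 97.2 in eWAT and 0.361, 0.444 and 0.601 in BAT. It was 2.16-fold higher in eWAT than in iWAT (adjusted p = 0.000123) and 50.6-fold higher in iWAT than in BAT (adjusted p = 3.61e-12).

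The TNF receptors parted from each other. Tnfrsf1a, the receptor that most cell types carry, measured 28.01 to 36.8 RPKM in iWAT and 28.8 to 32.2 in eWAT, and the difference did not pass (log2 0.09 ± 0.07, adjusted p = 0.287). In BAT, it measured 11.9 to 16.5 RPKM, the highest level of any member there, and iWAT exceeded BAT 1.56-fold (adjusted p = 1.82e-06). Tnfrsf1b, the receptor found mainly on immune and endothelial cells, measured 8.57 to 15.1 RPKM in iWAT, 37.5 to 52.5 in eWAT and 0.451 to 0.852 in BAT. Its ranges were separate in all 3 depots, with eWAT 4.08-fold above iWAT (adjusted p = 2.33e-07) and 43.7-fold above BAT (adjusted p = 8.40e-14).

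In the IL-1 family, Il1b, the inflammasome-processed cytokine, showed the largest difference between the white depots. It measured 2.89, 3.82 and 9.04 RPKM in iWAT, 19.6, 24.4 and 51.5 in eWAT and 0.0450, 0.0938 and 0.172 in BAT. The depots did not overlap. Il1b was 6.63-fold higher in eWAT than in iWAT (log2 -2.73 ± 0.32, adjusted p = 9.25e-06) and 30.0-fold higher in iWAT than in BAT (4.91 ± 0.37, adjusted p = 8.13e-09). Il1a, which signals through the same receptor, measured 1.23, 2.69 and 5.24 RPKM in iWAT, 4.18, 5.66 and 17.8 in eWAT and 0.123 to 0.282 in BAT. White depots overlapped for Il1a, and the 2.79-fold difference passed in all 12 samples (adjusted p = 0.00707) but not within either sequencing lane. Its reads overlap a second annotated gene, Gm14023.

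Il1rn, the secreted antagonist of the IL-1 receptor, was above both agonists in all 6 iWAT samples and in 4 of 6 eWAT samples, since Il1b exceeded it in the eWAT of mice 4 and 5. In BAT, Il1a exceeded it in 3 of 6 samples. It measured 7.44, 10.3 and 19.2 RPKM in iWAT, 30.1, 41.7 and 48.6 in eWAT and 0.122, 0.186 and 0.318 in BAT, with no overlap. The eWAT level was 3.39-fold above that of iWAT (adjusted p = 1.48e-05) and 135-fold above BAT (adjusted p = 5.92e-13). Il1rn lies in a cluster with 5 other IL-1 family genes at chr2:24008681-24207014 (mm9). Of these 5, only Il1f9, named after its values were seen, was above 3 reads in any sample, with 1 to 28 reads in the eWAT samples (mean 0.270 RPKM) and at most 1 in iWAT.

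Il1r1, the signaling receptor, measured 3.89 to 8.27 RPKM in iWAT, 3.201 to 5.88 in eWAT and 1.74 to 2.38 in BAT, with no passing difference between the white depots (adjusted p = 0.339) and a 1.73-fold difference between iWAT and BAT (adjusted p = 0.000101). Its partner Il1rap was 1.77-fold higher in eWAT than in iWAT (adjusted p = 3.22e-05), with a mean of 1.08 ± 0.122 RPKM (SD, n = 6) against 0.619 ± 0.116. The IL-33 receptor Il1rl1 measured 0.568 to 0.774 RPKM in iWAT, 1.44 to 2.05 in eWAT and 0.1001 to 0.147 in BAT, a 2.46-fold difference between the white depots (adjusted p = 5.25e-07). Il1r1 and Il1rl1 lie together at chr1:40141587-40608550 with Il1r2, Il1rl2, Il18r1 and Il18rap. Only Il1r1 and Il1rl1 of the 6 reached 1 RPKM.

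IL-18 is processed by the same protease as IL-1β, and its binding protein neutralizes it. Il18 measured 0.646 to 1.56 RPKM in iWAT, 1.89 to 3.01 in eWAT and 0.0411 to 0.312 in BAT, with 2.09-fold more in eWAT than in iWAT (adjusted p = 0.000395). The binding protein Il18bp measured 1.44 to 2.25, 1.07 to 2.23 and 0.610 to 1.33 RPKM. Between the white depots, Il18bp did not pass (adjusted p = 0.842), and its 1.37-fold difference between iWAT and BAT (adjusted p = 0.0345) was lost with mouse number as a block (adjusted p = 0.128).

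Il10, the anti-inflammatory cytokine, was the second most abundant ligand of eWAT after Tnf and was hardly detected in BAT. It measured 11.5, 14.2 and 33.6 RPKM in iWAT and 31.7, 48.1 and 98.9 in eWAT, while the 6 BAT samples held 1 read in all. White depots overlapped only through the iWAT sample of mouse 3. The 3.22-fold difference between the white depots passed (log2 -1.69 ± 0.32, adjusted p = 0.000468). Against a floor of 3 reads in each BAT sample, Il10 was at least 107-fold higher in iWAT and at least 344-fold higher in eWAT. Of its neighbors at chr1:132778651-132921551, Il24, Il20 and Il19, none had more than 1 read in a sample.

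Its receptor chains were present in all depots. Il10ra, the ligand-binding chain of blood cells, measured 4.73 to 7.61 RPKM in iWAT, 16.7 to 26.7 in eWAT and 0.510 to 0.988 in BAT, 3.47-fold higher in eWAT than in iWAT (adjusted p = 4.08e-07). Il10rb, a widely expressed chain that several cytokine receptors share, measured 8.92 to 12.8, 23.1 to 31.0 and 3.77 to 4.78 RPKM. Part of its exon sequence (15.0%) is shared with Ifnar2, so that its reads are less certain. The span between eWAT and BAT was 16.4-fold for Il10ra (adjusted p = 2.19e-12) and 4.14-fold for Il10rb (adjusted p = 5.00e-11).

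**Figure D3:**
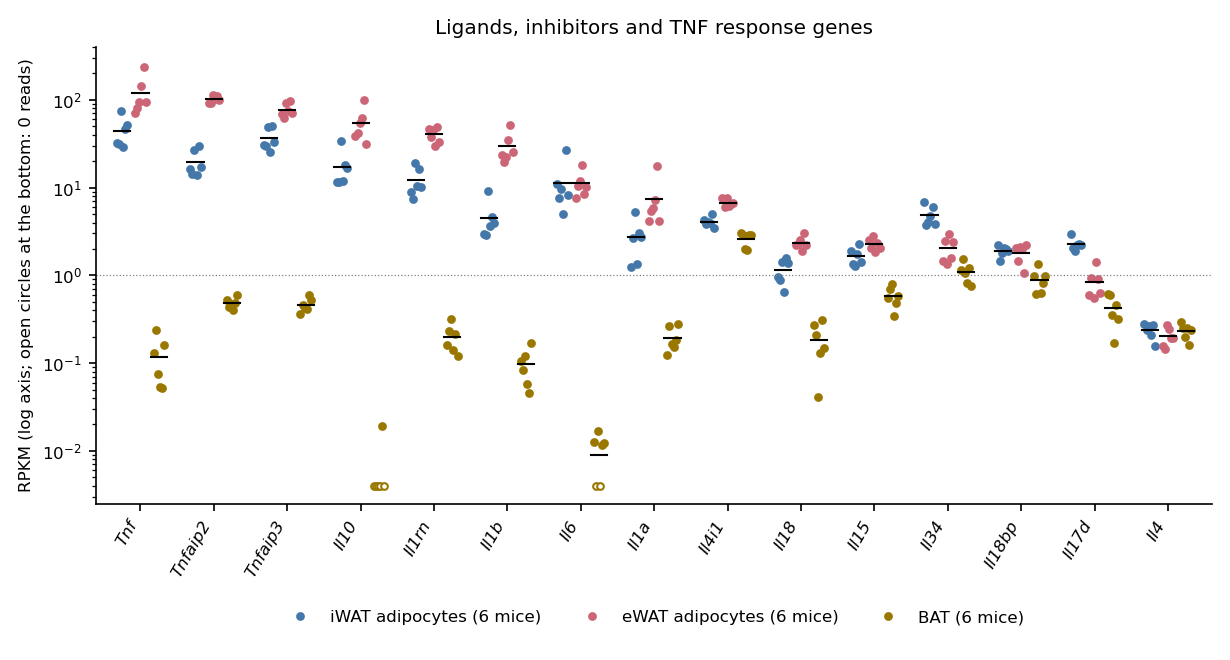
RPKM (log axis) of ligands, inhibitors and TNF response genes at 1 RPKM or more in a depot, with Il4i1 and Il4 added, 1 point per mouse, a bar at the mean of 6 mice, open circles for 0 reads and a dotted line at 1 RPKM. For Tnf, Il1b, Il10, Il1rn and Il6 every BAT sample lies below every sample of adipocytes, Il34 and Il17d are highest in iWAT, and the Il4 values of the 3 depots overlap.

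Il6 was the cytokine with a large difference to BAT and none between the white depots. In iWAT it measured 4.99, 9.01 and 26.8 RPKM, in eWAT 7.60, 10.4 and 18.3, and in BAT no sample had more than 1 read. The white depots overlapped widely (log2 -0.01 ± 0.34, adjusted p = 0.975). Against 3 reads in each BAT sample, Il6 was at least 114-fold higher in iWAT and at least 115-fold higher in eWAT.

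The receptors of the IL-6 group use Il6st (gp130) as the common signaling chain. It measured 21.5 to 35.9 RPKM in iWAT, 17.3 to 24.8 in eWAT and 6.56 to 11.5 in BAT. The difference between the white depots was small (1.21-fold, adjusted p = 0.0472) and was lost in 10 of 14 alternatives, also without either sample of mouse 5 (adjusted p = 0.0966 without the iWAT sample and 0.0837 without the eWAT sample) and with mouse number as a block (adjusted p = 0.0846). Il6ra, the IL-6-binding chain, measured 5.55 to 9.25, 10.2 to 14.1 and 1.02 to 2.33 RPKM and was 1.66-fold higher in eWAT than in iWAT (adjusted p = 6.95e-05). Il27ra, which binds IL-27 with gp130, measured 0.623 to 1.21, 2.43 to 3.41 and 0.192 to 0.428 RPKM and was 2.96-fold higher in eWAT than in iWAT (adjusted p = 2.96e-06). The near-identical copies Il11ra1 and Il11ra2, whose reads the counting may have split, were 1.68-fold and 1.84-fold higher in eWAT (adjusted p = 1.58e-05 and 7.08e-06). Neither passed between iWAT and BAT with TMM scaling.

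Among receptors of the common gamma chain group, Il7r, the IL-7 receptor of lymphocytes and some myeloid cells, showed the steepest order. It measured 4.56, 6.21 and 8.43 RPKM in iWAT, 24.0, 30.7 and 36.6 in eWAT and 0.0839, 0.114 and 0.130 in BAT. With no overlap, eWAT exceeded iWAT 4.90-fold (adjusted p = 2.14e-07) and BAT 182-fold (adjusted p = 2.66e-14). The ligand went the other way between the white depots: Il7, named after its values were seen, measured 0.620 to 0.808 RPKM in iWAT, 0.228 to 0.551 in eWAT and 0.0202 to 0.0631 in BAT, 1.78-fold higher in iWAT than in eWAT (adjusted p = 0.00113). The shared chain Il2rg measured 6.38 to 12.9, 12.5 to 18.8 and 2.46 to 3.87 RPKM and was 1.67-fold higher in eWAT than in iWAT (adjusted p = 0.000741), and 30.5% of its exon sequence is shared with the annotated gene Gm20489.

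IL-15, a growth factor of natural killer and memory T cells, is presented to its targets by Il15ra on the producing cell. Ligand and receptor were ordered in opposite ways. Il15 measured 1.29 to 2.30 RPKM in iWAT, 1.85 to 2.78 in eWAT and 0.348 to 0.801 in BAT, and its 1.38-fold difference between the white depots (adjusted p = 0.00941) was lost in 3 of 14 alternatives. Il15ra measured 4.24, 5.02 and 6.61 RPKM in iWAT, 1.09, 1.97 and 2.70 in eWAT and 8.23, 10.1 and 11.5 in BAT. Its depots did not overlap, and BAT was highest. Il15ra was 2.97-fold higher in BAT than in iWAT (adjusted p = 4.21e-09), 7.98-fold higher in BAT than in eWAT (adjusted p = 9.07e-10) and 2.68-fold higher in iWAT than in eWAT (adjusted p = 4.74e-05).

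For IL-4 and IL-13, receptors were detected and ligands hardly. Il4ra, the chain that both cytokines use, measured 4.98 to 16.5 RPKM in iWAT, 7.90 to 11.4 in eWAT and 1.52 to 2.48 in BAT. It did not pass between the white depots (adjusted p = 0.818) and was 2.89-fold higher in iWAT than in BAT (adjusted p = 9.48e-06). Il13ra1 measured 0.651 to 1.48, 1.73 to 1.92 and 0.208 to 0.328 RPKM, 1.98-fold higher in eWAT than in iWAT (adjusted p = 0.000454). The decoy Il13ra2 measured 0.516 to 1.29, 0.528 to 2.51 and 0.0113 to 0.0760 RPKM and did not pass between the white depots (adjusted p = 0.0879). Il4 itself stood at 0.157 to 0.276 RPKM in iWAT, 0.144 to 0.274 in eWAT and 0.161 to 0.296 in BAT, or 6 to 12 reads a sample, too few for the test and overlapping in all depots, and 14.6% of its exon sequence is shared with Kif3a. With Il13 and Il5, it forms the type 2 cytokine cluster at chr11:53416484-53538608, in which no gene reached 1 RPKM. The enzyme Il4i1, an amino acid oxidase induced by IL-4, was 1.67-fold higher in eWAT than in iWAT (adjusted p = 3.77e-06), with reads that other annotated genes overlap.

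Il17ra, the chain all IL-17 receptors share, kept to the general order, at 2.16 to 4.67 RPKM in iWAT, 4.52 to 6.28 in eWAT and 0.485 to 0.837 in BAT (1.79-fold higher in eWAT than in iWAT, adjusted p = 0.000365). Il17rc, its partner for IL-17A and IL-17F, measured 4.35, 4.81 and 5.57 RPKM in iWAT, 0.973, 1.68 and 2.44 in eWAT and 2.48, 3.79 and 4.55 in BAT. It was 2.90-fold higher in iWAT than in eWAT (adjusted p = 3.11e-05) and 3.197-fold higher in BAT than in eWAT (adjusted p = 3.39e-06). Between iWAT and BAT it did not pass (log2 -0.14 ± 0.12, adjusted p = 0.302) and its sign depends on scaling, with 0.63 without TMM. With counts summed over the rows of the symbol, it passed as higher in BAT (-0.32, adjusted p = 0.0284).

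The other 3 chains, named after their values were seen, had means below 1 RPKM in every depot. Il17rd exceeded 1 RPKM in the iWAT samples of mice 1, 4 and 5 (1.54, 1.17 and 1.31). Il17rb, Il17rd and Il17re were 2.74-fold, 2.76-fold and 2.72-fold higher in iWAT than in eWAT (adjusted p = 8.84e-05, 0.000195 and 0.0193), and 4.08-fold, 2.93-fold and 9.23-fold higher in BAT than in eWAT (adjusted p = 2.84e-05, 1.13e-07 and 6.63e-06). Of the 6 IL-17 members tested, 5 were higher in iWAT than in eWAT (83.3%, background 34.9%) and 1 in eWAT (16.7%, background 35.6%). Adipocyte markers also ran higher in iWAT than in eWAT (4 of 4 genes, median log2 difference 1.42), as did endothelial markers (4 of 4, 1.71), and their part was not tested. The ligand Il17d measured 1.89 to 2.97 RPKM in iWAT, 0.555 to 1.42 in eWAT and 0.171 to 0.619 in BAT, 2.69-fold higher in iWAT than in eWAT (adjusted p = 6.82e-05).

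Il34, the second ligand of the macrophage growth factor receptor Csf1r, had the same order as Il17d. It measured 3.79, 4.41 and 6.94 RPKM in iWAT, 1.34, 1.99 and 2.96 in eWAT and 0.763, 1.11 and 1.54 in BAT. No iWAT sample overlapped another depot, and iWAT exceeded eWAT 2.37-fold (adjusted p = 0.000191) and BAT 2.86-fold (adjusted p = 7.20e-07). Between eWAT and BAT, Il34 did not pass with TMM scaling (log2 0.28 ± 0.21, adjusted p = 0.224) and passed without it (1.10). The macrophage markers had the opposite order between the white depots. Il3ra, the IL-3-binding chain, measured 2.85 to 6.34, 8.54 to 15.2 and 0.688 to 1.09 RPKM in iWAT, eWAT and BAT, and was 2.39-fold higher in eWAT than in iWAT (adjusted p = 4.51e-05).

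**Figure D4:**
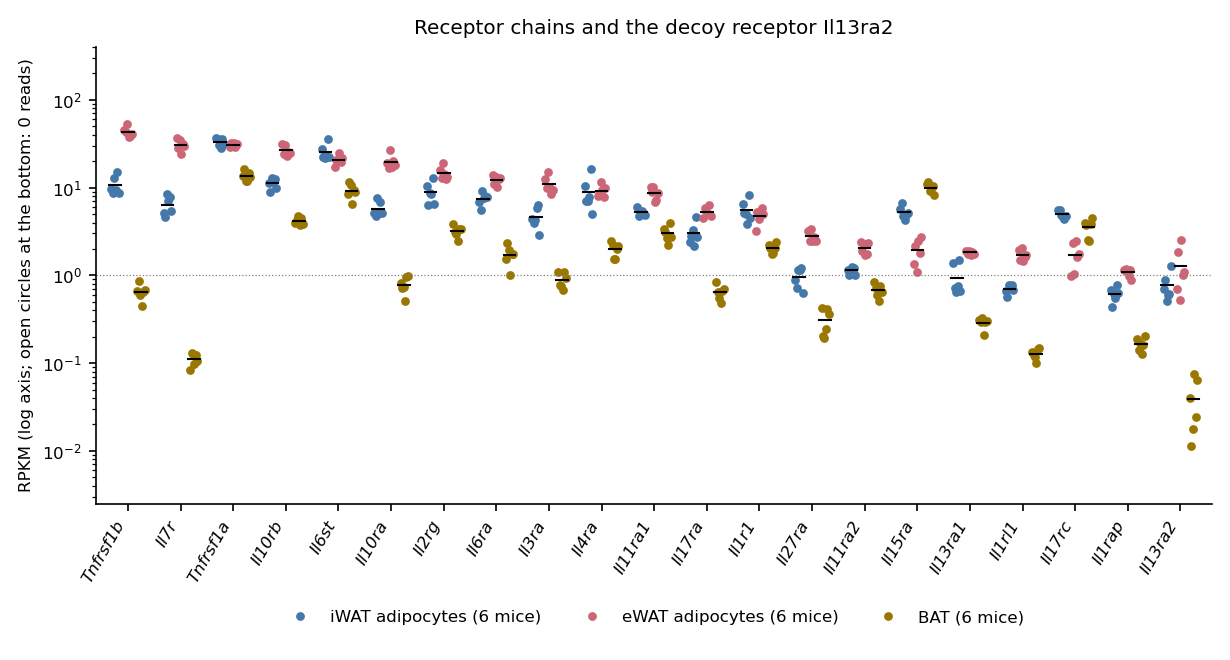
RPKM (log axis) of receptor chains at 1 RPKM or more in a depot and of the decoy receptor Il13ra2, 1 point per mouse, a bar at the mean of 6 mice and a dotted line at 1 RPKM. Il15ra is highest in BAT (8.23 to 11.5 RPKM) and Il17rc lowest in eWAT (0.973 to 2.44 RPKM), whereas Tnfrsf1b, Il7r and Il10ra are highest in eWAT and lowest in BAT.

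Of 46 members tested in all 3 comparisons, which share samples, 21 (45.7%, background 19.7% of 15696 genes) passed in all and stood highest in eWAT, then iWAT, then BAT: Tnf, Tnfaip2, Tnfaip3, Tnfrsf1b, Il1a, Il1b, Il1rn, Il1rap, Il1rl1, Il18, Il10, Il10ra, Il10rb, Il15, Il2rg, Il3ra, Il6ra, Il7r, Il13ra1, Il17ra and Il27ra. Another 3 (6.52%, background 4.9%) stood in the order iWAT, eWAT, BAT (Il7, Il6st and, named after its values were seen, Il2ra) and 2 (4.35%, background 15.7%) in the order BAT, iWAT, eWAT (Il15ra and Il17re). Mice also differed within a depot. Over the members at 1 RPKM, the median coefficient of variation between mice was 25.8% in iWAT, 15.9% in eWAT and 18.9% in BAT, beside 10.9%, 11.6% and 14.2% over all genes at that level. In iWAT, mouse 5 was the highest sample for 13 of 30 members and mouse 3 for 9, and in eWAT, mouse 3 was highest for 10 of 34 and mouse 5 for 9. Whether these samples were also highest over all genes was not tested. The eWAT sample of mouse 5 held the highest Tnf (234 RPKM), Il1b (51.5), Il10 (98.9) and Il1a (17.8) of all 18 samples. Its macrophage marker sum of 2641 RPKM lay in the eWAT range of 2605 to 4186, as the second lowest, and above the highest iWAT sum of 909. The part of macrophages in the values of this 1 sample was not tested.

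The white depots were sequenced on 2 lanes that each held both depots, and BAT on other lanes, so that for BAT lane and depot cannot be told apart. Within lane 1 (2 iWAT and 4 eWAT samples), 29 of 51 members passed between the white depots (56.9%, background 39.2%), and within lane 2 (4 iWAT and 2 eWAT samples), 33 did (64.7%, background 52.1%). Tnf, Il10 and Il1a did not pass within lane 1 (adjusted p = 0.0836, 0.0576 and 0.143), and the log2 differences there were -1.38, -1.51 and -1.48. With lane as a covariate, 38 of 51 members and 11131 of 16362 genes passed. Without the eWAT samples of mice 1 and 3, 38 of 51 members and 10189 of 16334 genes passed between the white depots. Between eWAT and BAT, 44 of 47 members and 13479 of 16505 genes then passed. Without the eWAT sample of mouse 5, 38 of 51 members and 11277 of 16380 genes passed between the white depots. Between eWAT and BAT, 45 of 48 members and 13569 of 16552 genes then passed.

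A list of 54 genes that act beside or downstream of these receptors was read in the same fits. Between the white depots, 43 of 53 tested passed (81.1%, background 70.5%), 30 higher in eWAT (56.6%, background 35.6%) and 13 in iWAT (24.5%, background 34.9%), with a median log2 difference of -0.33. In the comparison of iWAT with BAT, 40 were higher in iWAT (75.5%, background 38.6%) and 8 in BAT (15.1%, background 37.3%), with a median of 0.80. In that of eWAT with BAT, 39 were higher in eWAT (73.6%, background 41.2%) and 11 in BAT (20.8%, background 42.1%), with a median of 1.15. These splits shifted to 50 and 0, and to 46 and 4, without TMM scaling, and Stat5b, Chuk, Traf2 and other genes turned direction. All genes shifted the same way in that setting, to 11298 and 2523 of 16411 (iWAT and BAT) and to 10489 and 3534 of 16553 (eWAT and BAT).

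By function, inflammasome and protease genes moved as Il1b and Il18 did. Over all genes, 35.6% were higher in eWAT than in iWAT. Against BAT, 38.6% of all genes were higher in iWAT and 41.2% in eWAT. All 6 genes of processing and shedding were higher in eWAT than in iWAT and higher in both than in BAT, led by Nlrp3, the inflammasome sensor (log2 -2.53 ± 0.30, 5.57 ± 0.39 and 8.10 ± 0.21 for iWAT over eWAT, iWAT over BAT and eWAT over BAT). Its adaptor Pycard gave -1.83, 3.18 and 5.02, and the IL-1-cleaving Casp1 gave -1.13, 3.76 and 4.89. Of 12 NF-κB genes, 10 were higher in eWAT than in iWAT (83.3%, background 35.6%), among them the subunit Rel (-1.72 ± 0.22) and the inhibitor Nfkbie (-1.85 ± 0.18). The suppressors of cytokine signaling went the other way between the white depots. All 4 of 4 (Cish, Socs1, Socs2 and Socs3) were higher in iWAT (background 34.9%), by log2 0.62 to 1.43. Against BAT, these 4 genes were divided. In iWAT, 2 were higher than in BAT and 1 lower (50% and 25%, background 38.6% and 37.3%). In eWAT, 2 were higher than in BAT and 2 lower (50% each, background 41.2% and 42.1%). Socs3, which blocks gp130 and leptin receptors, was higher in both white depots than in BAT (log2 6.50 ± 0.21 and 5.88 ± 0.22), as were the early response genes. Sigirr, an inhibitory receptor of the IL-1 family, was higher in iWAT than in eWAT (1.69 ± 0.30). Janus kinases and STATs were divided, with 4 of 10 higher in iWAT (40%, background 34.9%) and 2 in eWAT (20%, background 35.6%).

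**Figure D5:**
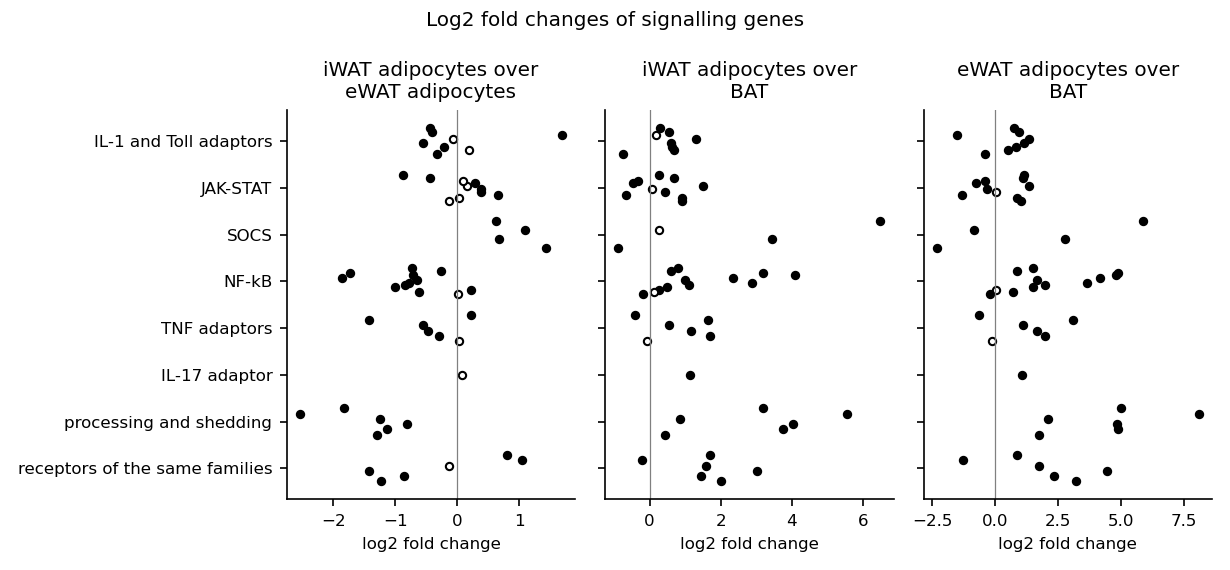
Log2 fold change (x axis, edgeR) of the signaling genes by functional group, where filled points passed an adjusted p of 0.05 and open points did not. Between the white depots, the 6 processing and shedding genes lie left of 0 and the 4 SOCS genes right of 0, and against BAT, Nlrp3 (5.57 and 8.10) and Socs3 (6.50 and 5.88) lie farthest to the right.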

How the data were processed

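RNA-seq libraries of 18 samples (6 per depot) were sequenced by the authors, who, per the submitters' processing notes, used cutadapt 1.16, HISAT2 2.1.0 and the mm9 build. The counting program, annotation and strand handling are not given in the sources used here. The deposited files hold raw read counts per transcript row, and RPKM values that the authors computed from them. One row was kept per symbol, that with the highest mean RPKM, which mattered for 4 members. One label field mentions regular chow, whereas titles and design give a high-fat diet, which was followed. The number in a title was taken as the mouse number.

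Counts were tested with edgeR 4.0.16 (R 4.3.3; quasi-likelihood, TMM, mean count of at least 10, Benjamini-Hochberg adjustment over all genes, threshold 0.05), each comparison on its own 12 samples and two-sided. P-values measure the spread between the samples of a depot, which holds differences of mouse, preparation, library and lane. Samples with the same mouse number were not paired in the main fits. Fold changes come from these fits, and levels are RPKM. Where every sample of a depot had at most 3 reads, a fold is a lower bound against 3 reads per library, TMM-scaled, which covers counting error only. Deviations from group means correlated by 0.011, -0.016 and 0.003 on average between samples of the same mouse number (iWAT and eWAT adipocytes, iWAT adipocytes and BAT, eWAT adipocytes and BAT), and the block on mouse number was kept as an alternative. No pair of libraries agreed within sampling noise (lowest chi-square per degree of freedom 16.2). On simulated counts, edgeR recovered 82 of 96 (iWAT adipocytes), 64 of 85 (eWAT adipocytes) and 76 of 86 (BAT) genes changed by log2 1, and 73 of 73, 90 of 91 and 73 of 73 changed by log2 2. False calls were 15 of 170, 9 of 163 and 7 of 156, a share above 0.05 in both white depots and below it in BAT. Each simulation used 1 depot and changed few of the 16249, 16301 and 15778 genes tested. Recovery where most genes differ, as between depots, was therefore not tested. Alternatives used DESeq2 1.42.0, limma 3.58.1, other scaling, filters, lanes and samples. Promoters were matched by symbol to RefSeq for 70 members.

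Named were members at 1 RPKM or more in a depot, the 5 largest changes per comparison among members and among signaling genes, the cytokines Il1b, Il4, Il6, Il10 and Tnf, and marker genes. Members and lists were chosen with earlier results of these data known.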

Additional observations from a re-analysis of the deposited data

Results flagged for a closer look

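In 8 of 108 sets of 6 samples, 1 mouse lay apart from the other 5 by more than Dixon's limit for the gap relative to the range. For normally distributed values, chance alone gives about 1 in 20, or 5.4 sets. Whether the RPKM values meet this condition was not tested, so 5.4 is a rough guide only. In iWAT adipocytes, mouse 3 had the highest Il10 at 33.6 RPKM (others 11.5 to 17.9) and the highest Il1b at 9.04 RPKM (others 2.89 to 4.57). Mouse 5 had the highest Il6 of that depot at 26.8 RPKM (others 4.99 to 10.9), and mouse 1 the highest Il17d at 2.97 RPKM (others 1.89 to 2.26). In eWAT adipocytes, Il1a of mouse 5 was 17.8 RPKM (others 4.18 to 7.19) and Il10ra of mouse 3 was 26.7 RPKM (others 16.7 to 20.3). In BAT, Il13ra1 of mouse 16 was 0.208 RPKM (others 0.291 to 0.328), and Il10 of mouse 17 was 0.0192 RPKM, which is 1 read, where the other 5 mice had none.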

How the results depend on the processing

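Of 1155 values of 36 named members under alternative settings, 1111 kept their direction and their side of the threshold, 22 passed newly, 19 no longer passed and 3 turned. Those that turned were Il17rc between iWAT adipocytes and BAT, which did not pass with TMM, at 0.51 and 0.41 with limma on log2(RPKM + 0.1) and log2(RPKM + 1) and 0.63 without TMM scaling; these settings do not center the genes. An added log2 difference of at least 1 was also required. Of 53 signaling genes, 14 (iWAT against eWAT adipocytes), 23 (iWAT adipocytes against BAT) and 35 (eWAT adipocytes against BAT) then passed. In the same order, 27 of 51, 28 of 48 and 37 of 49 members passed. Of all genes, 4151 of 16362, 5939 of 16411 and 8029 of 16553 passed. Between the white depots, the share of signaling genes was then close to that of all genes. Within lane 1, 6370 of all genes passed between the white depots, from fewer samples. Il15 was lost in lane 1 (adjusted p = 0.0932), in lane 2 (0.127) and without the eWAT samples of mice 1 and 3 (0.0605), where Il13ra2 was gained (0.00949), and Il17ra was lost in lane 2 (0.0830). The omissions of eWAT samples were chosen after seeing the data. With the replicate block on mouse number, 39 of 51, 35 of 48 and 46 of 49 members passed in the 3 comparisons. Of all genes, 11015 of 16362, 10559 of 16411 and 12655 of 16553 passed there. With that block, Il16 (named after its values were seen) lost its call between iWAT adipocytes and BAT (edgeR adjusted p = 0.0809), beside the losses of Il6st and Il18bp given above. Without the iWAT sample of mouse 5, 39 of 51 members and 11660 of 16300 genes passed between the white depots. Between iWAT adipocytes and BAT, 37 of 46 members and 12329 of 16340 genes then passed. The counts without the eWAT sample of mouse 5 (38 and 45 members) are given above beside those of all genes. Without TMM scaling, 38 of 51 (9 and 29), 45 of 48 (42 and 3) and 49 of 49 (44 and 5) members passed. Between the white depots, 11401 of 16362 genes passed in that setting (5288 and 6113). Most of all genes tested also leaned toward the white depots against BAT in that setting. Of 16411 genes, 11298 passed as higher in iWAT adipocytes and 2523 in BAT. Of 16553 genes, 10489 passed as higher in eWAT adipocytes and 3534 in BAT. At a cutoff of 0.1 RPKM in place of 1, 50 members counted in iWAT adipocytes and 41 in BAT, and at 0.5 RPKM, 21 in BAT. Depth limited members with few reads, such as Il4.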
